A study of Mus musculus with 24 samples.

Results

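MiR-21a and miR-21b, a pair of mouse microRNAs of similar sequence, were followed through the 4 materials of a small RNA sequencing study of acetaminophen (APAP) liver injury. The members were chosen by name: miR-21a-5p, miR-21a-3p and miR-21b among the 1915 entries of the mature table (3 of 1915), and the hairpins mir-21a, mir-21b and mir-3965 among the 1186 entries of the hairpin table (3 of 1186). All 6 were present. The materials were exosomes (small secreted vesicles) from serum, exosomes from hepatocyte culture medium, cultured primary hepatocytes, and liver, all of mouse origin. Each material was untreated (control), given APAP, or given APAP with granulocyte colony-stimulating factor (G-CSF), a cytokine that mobilises granulocytes. Serum and liver came from mice given 500 mg/kg APAP with or without 100 µg/kg G-CSF, and hepatocytes and their exosomes from cultures given 20 mM APAP with or without 1 µg/ml G-CSF. The labels state no genotype, age or number of mice or cultures. The 24 samples were listed as 12 conditions on 2 instruments, but the deposited tables hold 1 column per condition, so there were no replicates.

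A microRNA finds its messenger RNA targets mainly through its seed, bases 2 to 8 from the 5′ end, and lowers their translation and stability. MiR-21a-5p is the mouse counterpart of human miR-21-5p, which represses regulators of cell growth and death such as PDCD4. It is known to rise in many injured, inflamed, fibrotic or proliferating tissues, including regenerating rodent liver. The opposite arm of the same hairpin, miR-21a-3p, is usually the less abundant product.

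The mature sequences are shown because the closeness of the entries bears on every value that follows. They were taken from RefSeq (GRCm38.p6) and are written 5′ to 3′ with the seed in capitals. MiR-21c and miR-3965 are added as the closest relatives.
mmu-miR-21a-5p: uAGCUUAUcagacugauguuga
mmu-miR-21b: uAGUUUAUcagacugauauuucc
mmu-miR-21c: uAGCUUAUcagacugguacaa
mmu-miR-3965: uGCUUAUCagccugauguu
mmu-miR-21a-3p: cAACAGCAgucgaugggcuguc
Positions count from 1 at the 5′ end of miR-21a-5p, and its base is written first. MiR-21b is the same as miR-21a-5p at 18 of 22 positions, with the substitutions C4U, G18A, G21U and A22C, and is 1 base longer. The substitution C4U lies in the seed, so the seed AGCUUAU of miR-21a-5p is not that of miR-21b, AGUUUAU. Among 1679 mature mouse sequences of the reference, only miR-21c had the seed of miR-21a-5p, and no other had that of miR-21b. MiR-3965 matches 17 of 19 bases of miR-21a-5p when shifted by 1 base, with A2U and A12C.

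The hairpins lie apart in the genome (GRCm38.p6, minus or plus strand as given). Mir-21a is at chr11:86584067-86584158 on the minus strand, inside exon 12 of Vmp1 on the same strand, in the part annotated as untranslated. Mir-21b is at chr3:29636744-29636851 on the plus strand, inside an intron of Egfem1. Mir-3965 is at chr5:134326454-134326522 on the plus strand, with no annotated gene over it, and does not overlap mir-21a. What the hairpins share is a stretch of sequence. In a search of 1005 mouse hairpins for the 22-base window closest to miR-21a-5p, 4 hairpins besides mir-21a had at least 16 equal bases, and the next best had 14. Their windows are shown with the bases equal to miR-21a-5p in capitals.
mir-21b: UAGuUUAUCAGACUGAUaUUuc
mir-3965: cuGCUUAUCAGcCUGAUGUUcA
mir-3967: gAGCUUgUCuGACUGAUGUUGg
mir-21c: UAGCUUAUCAGACUGgUacaau
Of these windows, those of mir-21b, mir-3965 and mir-3967, had 18 equal bases.

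Depth decided where the pair could be read. The values are estimated counts, and mature totals per column were 4450 to 49330 in hepatocytes and liver and 6515 in control serum exosomes. In the other 5 columns, all of exosomes, they were 47 to 692. With each column a single value, the intervals given here are 95% intervals for counting error only (Wilson for shares, exact conditional for ratios) and say nothing of the spread between mice or cultures. The hepatocyte marker miR-122-5p was the most abundant miRNA in 4 of the 6 hepatocyte and liver columns and among the top 3 in all 6. In hepatocyte exosomes the summed hepatocyte markers came to 1, 0 and 1 counts in the order control, APAP and APAP plus G-CSF, so the source named by the label could not be seen there. For the APAP-treated serum exosome columns the sample titles and the treatment characteristic assign G-CSF in opposite ways. The characteristic is followed here.

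MiR-21a-5p was the most abundant miRNA of untreated hepatocytes and miR-21b the next. MiR-21a-5p had 5536 counts there, 20.7% of the column (20.2 to 21.2), and miR-21b had 4389 counts, 16.4% (16.0 to 16.9). Together they made up 37.1% (36.5 to 37.7) of all mature counts, ahead of miR-122-5p at 14.1%. How reads matching both entries were divided is not known, so the place of miR-21b is uncertain. The sum holds only if no read was counted whole in both. In untreated liver miR-21a-5p had 290 counts (0.587%, rank 43) and miR-21b 181 counts (0.367%, rank 55). The highest share of miR-21a-5p in any other column was 2.50%, in APAP liver, where only miR-122-5p and miR-451a stood above it, an erythroid miRNA.

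**Figure D1:**
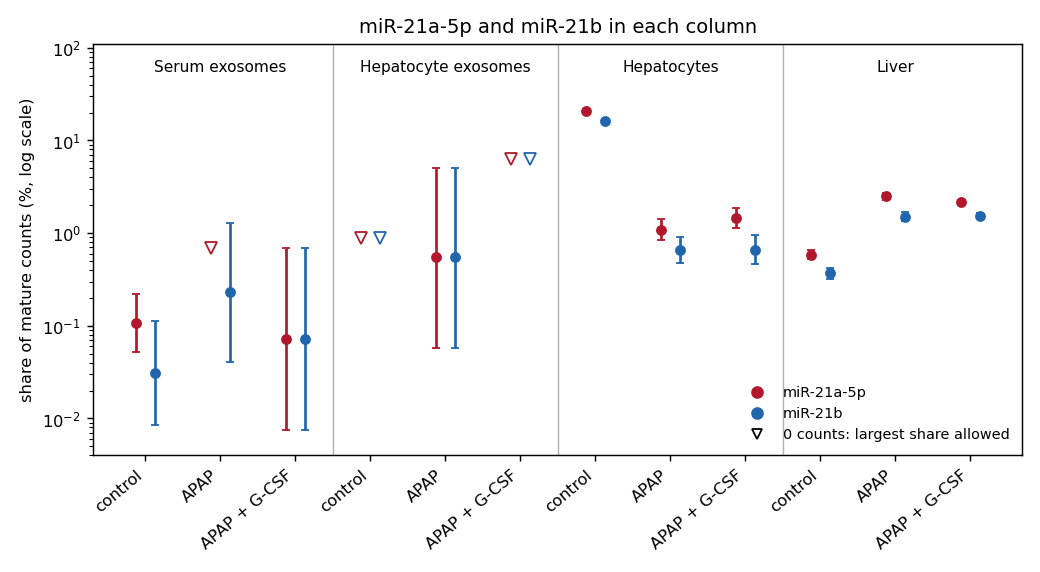
Share of each column's mature counts (percent, log scale) taken by miR-21a-5p and miR-21b in the 12 columns; points are shares, bars are 95% Wilson intervals, and open triangles mark 0 counts at the largest share that a floor of 3 counts allows. Control hepatocytes stand at 20.7% and 16.4%, APAP and APAP plus G-CSF liver lie above control liver, and the exosome columns rest on 7 counts or fewer.

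In cultured hepatocytes both miRNAs were far lower with APAP. MiR-21a-5p had 5536 counts in control, 58 with APAP (1.09%, 0.843 to 1.40) and 64.5 with APAP plus G-CSF (1.45%, 1.14 to 1.85). MiR-21b had 4389, 35 and 29.5 counts, or 16.4%, 0.657% and 0.663%. The control column was the high one for both, and the treated columns overlapped within counting error. After scaling for library composition (trimmed mean of M values, TMM), miR-21a-5p was 18.1-fold lower with APAP than in control (14.0 to 23.9) and miR-21b 23.8-fold lower (17.1 to 34.3). With APAP plus G-CSF the differences from control were 12.8-fold (10.1 to 16.7) and 22.1-fold (15.2 to 32.3).

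A difference within a material was called when 1 of the columns had at least 10 counts, the ratio was at least 2-fold and its interval excluded 1. By that rule miR-21a-5p and miR-21b were called lower with APAP, as were 27% of the 100 miRNAs tested. Their place was at the low end of the miRNAs with a ratio, whose median log2 fold was -0.60. MiR-21b at -4.57 had 92 above it and none below, and miR-21a-5p at -4.18 had 91 above and 1 below. The rest of the 100 had a count that rounded to 0 and gave no ratio. A 0 was set to a floor of 3 counts, so miRNAs at 0 could lie lower than given. Against control, both were also called lower with APAP plus G-CSF, where 29% of 100 were. Among those with a ratio, 4 and 1 miRNAs had lower folds than miR-21a-5p and miR-21b, and 87 and 90 had higher ones. Adding G-CSF to APAP gave ratios of 1.42 (0.973 to 2.05) for miR-21a-5p, log2 0.51, and log2 0.11 for miR-21b, neither of them called, against 27.7% of 47 miRNAs called in either direction. These intervals leave room for a difference of about the fold limit of 2 for miR-21a-5p. Under 3 other scalings the interval for miR-21a-5p lay above 0 on the log2 scale, with ratios still under 2-fold. For the same comparison hairpins mir-21a and mir-3965 stood in the direction of miR-21a-5p, at ratios of 1.18 (1.08 to 1.28) and 1.16 (1.065 to 1.26). Hairpin mir-21b stood the other way, at a ratio of 0.882 (0.790 to 0.984).

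Marker lists of other cell types were read in the same hepatocyte columns. The summed hepatocyte list held 18.5%, 26.9% and 14.0% of counts in control, APAP and APAP plus G-CSF, with 5, 5 and 4 of its 5 members detected and miR-122-3p at 0 in the last. The biliary and epithelial list went from 1.22% to 0.150% and 0.0449%, and this was miR-31-5p alone: its 325, 8 and 2 counts left 1, 0 and 0 for the other 4 members. The endothelial pair of miR-126a arms went from 0.333% to 1.76% and 1.24%. The erythroid list was at 0 or 1 count, the leukocyte list at 2 to 7 counts and the stellate and smooth-muscle list at 0.833 to 8.83 counts, with miR-144, miR-486, miR-142a, miR-150-5p, miR-199a-3p and miR-214-3p at 0. Their part in the lower miR-21 counts was not tested. In RNA from whole cultures or tissue, fewer cells of a type and less RNA per cell cannot be told apart.

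In liver the direction was the opposite. MiR-21a-5p had 290 counts in control (0.587%, 0.524 to 0.659), 492 with APAP (2.50%, 2.29 to 2.73) and 942 with APAP plus G-CSF (2.16%, 2.02 to 2.30). MiR-21b had 181, 295 and 665 counts, or 0.367%, 1.50% and 1.52%. Control liver was the low column for both, and its intervals did not meet those of the treated columns. Scaled by TMM, miR-21a-5p was 4.75-fold higher with APAP (4.09 to 5.50) and miR-21b 4.55-fold higher (3.77 to 5.51). With APAP plus G-CSF the ratios to control were 3.32 (2.90 to 3.80) and 3.75 (3.18 to 4.45).

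Both were called higher than control in both liver comparisons, where the background of calls in that direction was 23.1% of 160 miRNAs with APAP and 15.8% of 171 with APAP plus G-CSF. The median log2 fold of all miRNAs was -0.25 and -0.03. With APAP, 13 miRNAs had a higher fold than miR-21a-5p (log2 2.25) and 14 a higher fold than miR-21b (log2 2.18), so the pair was among the raised miRNAs and not at their head. Between the treated livers, miR-21a-5p was lower with G-CSF at a ratio of 0.699 (0.627 to 0.782) and miR-21b at 0.825 (0.717 to 0.948). Neither reached the 2-fold limit, which 30.2% of 162 miRNAs passed in either direction, and the direction for miR-21b turned with scaling by column totals (log2 0.02). The hairpins stood the other way, at ratios of 1.11 (1.06 to 1.16) for mir-21a and 1.41 (1.33 to 1.50) for mir-21b, so no direction is given for G-CSF added to APAP in liver.

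The erythroid list moved with these liver columns, at 0.209% of counts in control, 6.53% with APAP and 1.13% with APAP plus G-CSF, with 5 of 5 members detected in each. The hepatocyte list stood at 27.4%, 42.3% and 15.0%, and the biliary and epithelial list at 1.73%, 0.377% and 1.66%. Each of these sums rested mostly on 1 member. Without miR-122-5p the rest of the hepatocyte list held 3.77%, 2.18% and 2.29%, and without miR-31-5p the rest of the biliary and epithelial list held 0.0405%, 0.0931% and 0.0484% (20, 18.3 and 21.2 counts), other directions than those of the sums with APAP. Leukocyte (0.820% to 0.898%), endothelial (2.03% to 2.89%) and stellate and smooth-muscle lists (1.81% to 2.34%) varied less, with miR-142a-5p at 0 in APAP plus G-CSF liver the only undetected member. Their part in the higher miR-21 counts was not tested.

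**Figure D2:**
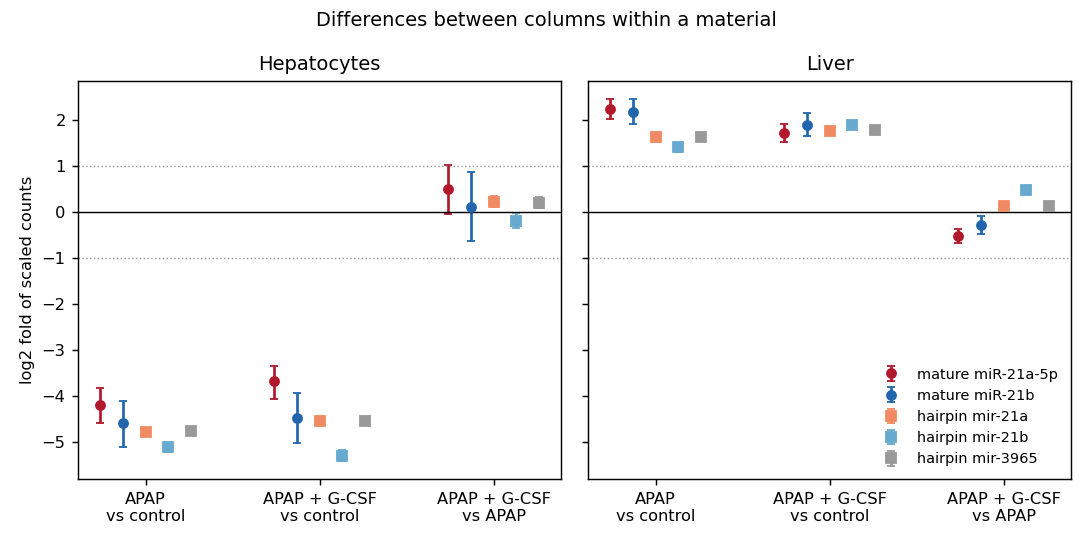
Log2 ratios of TMM-scaled counts between columns of hepatocytes (left) and liver (right) for the mature miRNAs (circles) and hairpins (squares), with 95% exact counting intervals; dotted lines mark the 2-fold limit. Against control every point lies below -3 in hepatocytes and above 1 in liver, while G-CSF added to APAP leaves all points within the limit.

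The hairpin table, 25.1 to 33.7 times deeper than the mature table in 6 of the 7 columns with over 1000 mature counts, gave the same directions against control. Mir-21a had 119094, 1220.5 and 1018 counts in hepatocytes in the order control, APAP and APAP plus G-CSF, and 6097, 1881 and 18858 in liver. Mir-21b had 103809, 848.5 and 530 counts in hepatocytes and 4416, 1170 and 14945 in liver. Mir-3965 had 114508, 1194 and 981 counts in hepatocytes and 5820, 1801 and 18036 in liver. With APAP the 3 hairpins were 27.4-fold, 34.3-fold and 26.9-fold lower in hepatocytes, in the order mir-21a, mir-21b and mir-3965. In APAP liver they were 3.10-fold, 2.66-fold and 3.11-fold higher. G-CSF added to APAP called none of them, where 22.2% of 230 hairpins in hepatocytes and 31.7% of 379 in liver were called in either direction.

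All 3 hairpins were called in each comparison with control, against 33.8% of 302 hairpins lower with APAP and 34.5% of 290 lower with APAP plus G-CSF in hepatocytes. In liver the background was 16.7% of 432 higher with APAP and 18.6% of 458 higher with APAP plus G-CSF. In APAP liver the hairpin table was only 5.65 times as deep as the mature table, and mir-21a had 3.82 hairpin counts for each mature count of miR-21a-5p against 15.8 to 23.7 in the other 6 of those 7 columns. The folds were scaled within the hairpin table.

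Whether the response differed between materials was tested in a fit across all miRNAs of the 6 hepatocyte and liver columns, with both APAP columns of a material set against its control. For miR-21a-5p the log2 difference of the responses, hepatocytes minus liver, was -5.78 (approximate SE 1.25, adjusted p = 0.00311, edgeR's quasi-likelihood F-test with Benjamini-Hochberg adjustment). For miR-21b it was -6.40 (approximate SE 1.23, adjusted p = 0.00178 by the same edgeR test). Of 154 miRNAs tested, 12 passed and 29 had an unadjusted p under 0.05. Only miR-21a-5p and miR-21b passed with a more negative response in hepatocytes, 1.3% of the 154, while 10 passed the other way (6.49%). In the hairpin fit the differences were -6.64 for mir-21a, -7.15 for mir-21b and -6.63 for mir-3965, with edgeR adjusted p of 2.32e-05, 1.59e-05 and 2.32e-05, among 2.69% of 372 hairpins called in that direction.

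The fit has 1 control column per material, and its residual spread comes from the difference between APAP and APAP plus G-CSF columns alone. A shift of the single hepatocyte control column would therefore enter every value of the hepatocyte response, and its spread could not be estimated. Hepatocytes and liver also received APAP in different ways and doses, so material and exposure cannot be told apart.

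**Figure D3:**
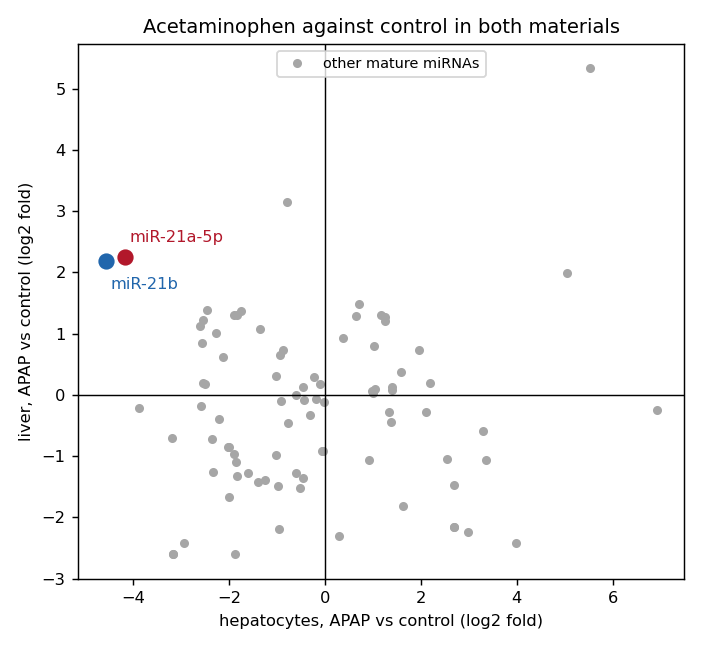
Log2 ratio of APAP to control in hepatocytes (x axis) and liver (y axis) for the 87 mature miRNAs with a ratio in both, TMM-scaled within each material; each point is 1 miRNA. MiR-21b (-4.57, 2.18) and miR-21a-5p (-4.18, 2.25) lie farthest to the left, in the upper left.

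Set side by side over the 87 miRNAs with a ratio in both materials, 10 were at least 2-fold lower with APAP in hepatocytes and at least 2-fold higher in liver, and 8 showed the reverse. Of the 10, 6 met the rule for a call in both materials (6.90% of 87), as did all 8 of the reverse. These are numbers of entries, some of which may share reads. In liver miR-106a-5p and miR-106b-5p, of the 10, had the same counts (15.9 in control and 14.1 with APAP). MiR-378a-3p and miR-378c, of the 8, had the same log2 folds (2.68 in hepatocytes and -2.16 in liver). Besides the pair, the 10 were miR-17-5p, miR-19a-3p, miR-19b-3p, miR-106a-5p and miR-106b-5p of the miR-17-92 cluster and its paralogues, and miR-98-5p, miR-101a-3p and miR-3962. Not called in hepatocytes were miR-17-5p, miR-106a-5p, miR-106b-5p and miR-3962, each with under 2 counts in the APAP column. They were named after their values were seen. The log2 folds of the 8 besides the pair ran from -1.36 to -2.60 in hepatocytes and from 1.00 to 1.38 in liver, smaller than those of the pair in both materials.

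The level of the pair in hepatocytes against liver depended on the treatment. As a share of counts, miR-21a-5p was 35.3-fold higher in control hepatocytes than in control liver (31.3 to 39.8) and miR-21b 44.7-fold higher (38.6 to 52.2), while 16.1% of 161 miRNAs were called higher. With APAP the order turned: miR-21a-5p was 2.30-fold lower in hepatocytes than in liver (1.75 to 3.07) and miR-21b 2.28-fold lower (1.60 to 3.34), where 41.6% of 113 miRNAs were called lower. With APAP plus G-CSF miR-21a-5p was 1.49-fold lower (1.16 to 1.96), under the 2-fold limit, and miR-21b 2.30-fold lower (1.57 to 3.37), where 33.3% of 159 were called lower. Over the 7 columns with over 1000 counts the share of miR-21a-5p fell in the order control hepatocytes, APAP liver, APAP plus G-CSF liver, APAP plus G-CSF hepatocytes, APAP hepatocytes, control liver and control serum exosomes. The intervals of the treated livers overlapped, as did those of the treated hepatocytes.

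Fitted over all 3 treatments, the materials did not separate for the pair. The log2 difference, hepatocytes minus liver, was 1.33 for miR-21a-5p (approximate SE 1.42, adjusted p = 0.552) and 1.08 for miR-21b (approximate SE 1.38, adjusted p = 0.639) in edgeR's quasi-likelihood F-test with treatment as a block. That fit called 14 of 154 miRNAs (9.09%), and 44 had an unadjusted p under 0.05. Without the control hepatocyte column the differences became -0.14 and -0.43, and without control liver miR-21b became -0.23, so the sign rests on the controls. An exact two-sided permutation test on log2 CPM (counts scaled to the column total) gave p = 0.6 for miR-21a-5p and p = 0.8 for miR-21b, where 3 columns against 3 cannot go below 0.1. That test exchanged the columns freely and did not keep the match of treatments.

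The abundance in control hepatocytes was not seen in their exosomes. MiR-21a-5p and miR-21b were both at 0 of 335 counts in control hepatocyte exosomes, which allows a share of up to 0.896%. Set against the floor of 3 counts, miR-21a-5p was at least 23.1-fold lower than in control hepatocytes and miR-21b at least 18.3-fold lower, where 8.91% of 101 miRNAs were called lower. At 335 counts only miRNAs abundant in the cells could be called lower, so depth limits that background. MiR-122-5p was also scarce there, with 3767 counts (14.1%) in control hepatocytes and 1 count in their exosomes. In the hairpin table mir-21a had 1.33 counts and mir-21b 2, so mir-21a was 97.0-fold lower than in the cells (23.2 to 5108) and mir-21b 56.4-fold lower (15.6 to 465), against 8.93% of 280 hairpins. Each of the pair had 0.5 counts of 91 with APAP and 0 of 47 with APAP plus G-CSF, too few to set against the cells.

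In serum exosomes of untreated mice miR-21a-5p had 7 counts (0.107%, 0.0521 to 0.222) and miR-21b 2 counts (0.0307%). MiR-21a-5p was 5.47-fold lower than in untreated liver (2.62 to 13.7) and miR-21b 11.9-fold lower (3.26 to 99.4), where 45.8% of 155 miRNAs were called lower. The treated serum columns had 0 and 0.5 counts of miR-21a-5p and 1 and 0.5 of miR-21b. The floor of 3 counts stood at shares of 0.688% and 0.434% there, above the control share. A fall from control serum, or a rise within those shares, was therefore not detectable at this depth, whichever of those columns received G-CSF. The hairpins were at 165.5, 85.7 and 160 counts in control serum for mir-21a, mir-21b and mir-3965. By the treatment characteristic, they were at 0 in the APAP column and at 1.25, 1.25 and 3.25 in the APAP plus G-CSF column. For mir-21a the ratio of that column to control was 0.340 (0.00683 to 1.53), which was not called, where 44.2% of 242 hairpins were.

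The ratio of miR-21b to miR-21a was not constant across columns. The ratio of mature miR-21b to miR-21a-5p was 0.793 in control hepatocytes, 0.603 with APAP and 0.457 with APAP plus G-CSF, and in liver 0.625, 0.599 and 0.706 in the same order. The hairpin ratio of mir-21b to mir-21a was 0.872, 0.695 and 0.521 in hepatocytes and 0.724, 0.622 and 0.793 in liver. Of the summed hairpin pair, mir-21b made up 46.6% (46.4 to 46.8) in control hepatocytes, 41.0% (38.9 to 43.1) with APAP and 34.2% (31.9 to 36.6) with APAP plus G-CSF, 3 intervals that do not meet. In liver the shares were 42.0% (41.1 to 43.0), 38.4% (36.6 to 40.1) and 44.2% (43.7 to 44.7). By these hairpin counts mir-21b lay further below control than mir-21a in hepatocytes. The intervals take each count as a read of 1 entry, so error in dividing shared reads is not in them, and the spread between cultures is unmeasured. Of the mature pair, miR-21b made up 44.2% (43.25 to 45.2) in control hepatocytes, 37.6% (28.5 to 47.8) with APAP and 31.4% (23.4 to 41.9) with APAP plus G-CSF. There the APAP interval overlapped both others.

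**Figure D4:**
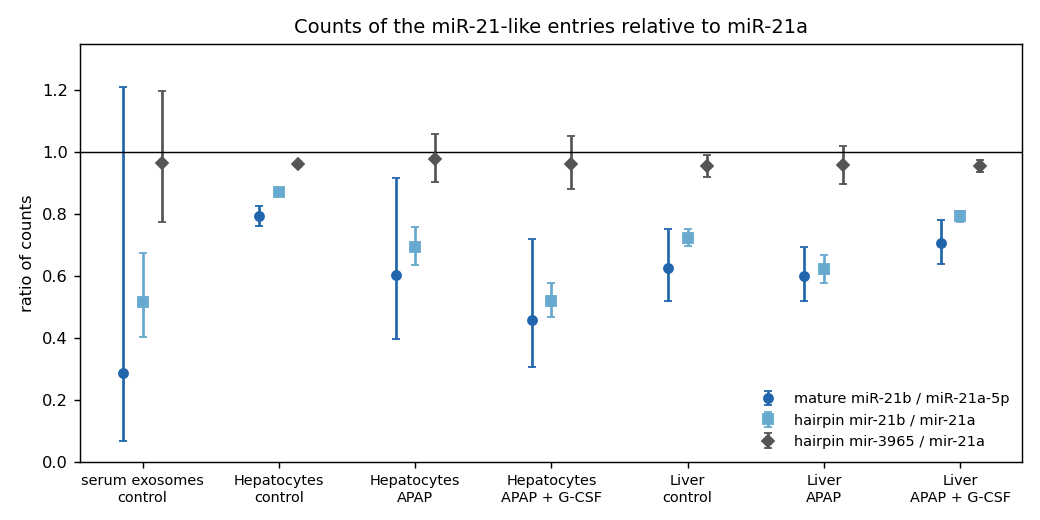
Ratio of counts of mature miR-21b to miR-21a-5p (circles), hairpin mir-21b to mir-21a (squares) and hairpin mir-3965 to mir-21a (diamonds) in the 7 columns with over 1000 mature counts, with bars from 95% Wilson intervals of the share of the pair. Mir-3965 stays between 0.955 and 0.978 of mir-21a, while mir-21b varies from 0.518 to 0.872.

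Mir-3965 tracked mir-21a almost count for count. Its ratio to mir-21a was 0.955 to 0.978 over the 7 columns, with a median of 0.962, although the hairpins lie on different chromosomes. Mature miR-3965 had 0 counts in all 12 columns. Mir-3967, whose best window has as many equal bases as that of mir-3965, had 31 counts in control hepatocytes, 0.026% of mir-21a, and mir-21c had 1234, 1.04% of mir-21a. Mature miR-21c had 18.8 counts in control hepatocytes and at most 2 elsewhere. No source used here says how reads matching several entries were divided, and 67.5% of the nonzero mature values were whole numbers within 0.001. How many reads were counted in more than 1 entry was not tested. The entries are therefore not treated as independent measurements, and the amount of miR-21b itself is uncertain. Summing miR-21a-5p and miR-21b gave log2 folds with APAP of -4.34 in hepatocytes and 2.22 in liver.

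The opposite arm was scarce throughout. MiR-21a-3p had 1 count in control hepatocytes beside 5536 of miR-21a-5p, or 0.0181% of the pair (0.00319 to 0.102). In liver it had 4, 2.33 and 5 counts, or 1.36%, 0.472% and 0.528% of the pair, and it was at 0 in the remaining 8 columns. No comparison of it passed the minimum of 10 counts. The share in control hepatocytes lay below the interval in control liver (0.530 to 3.44), a difference of 1 count against 4.

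The miRNAs whose pattern over the 7 columns was most like that of miR-21a-5p were described by Pearson's r of log2 CPM, over 151 candidates outside the family. The 5 highest were miR-19b-3p (r = 0.962), miR-19a-3p (0.960), miR-203-3p (0.856), miR-101a-3p (0.834) and miR-7b-5p (0.797), beside 0.996 for miR-21b. Spearman's rho for these 5 was 0.714, 0.857, 0.643, 0.821 and 0.829. MiR-19b-3p had 1262, 39.5 and 34.5 counts in hepatocytes and 177.5, 138 and 208 in liver. The 7 points share libraries and rest much on control hepatocytes, so these are descriptions.

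Other miRNAs linked to injury and growth were called in both directions. Of 22 on that list, 11 had 10 counts or more in hepatocytes for APAP against control, of which 2 were called higher and 3 lower. Of all 100 miRNAs, 26% were called higher and 27% lower. The median log2 fold of the list was -1.76, beside -0.60 for those of the 100 with a ratio. MiR-155-5p, an inflammation-linked miRNA, had 2 counts in control and 46 with APAP, a 121-fold higher scaled value (31.7 to 1030). Called lower were miR-31-5p (325 to 8 counts, 7.72-fold), miR-19b-3p (6.07-fold) and the p53 target miR-34a-5p (105 to 5 counts, 3.99-fold). MiR-29a-3p, of a family that represses collagens, was 3.86-fold higher. Its relatives miR-29c-3p, at a ratio of 1.55 (1.02 to 2.23), and miR-29b-3p, at 0.575 (0.280 to 1.17), were not called. With APAP plus G-CSF against control 3 of 11 were called higher and 3 lower (23% and 29% of all), and in the comparison of treated hepatocytes 3 of 5 were called higher (10.6% of all), each of the miR-29 family (2.25-fold to 2.67-fold).

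In liver 18 of the 22 could be read, and with APAP 6 were called higher and 2 lower, with a median log2 fold of 0.46 beside -0.25 for all 160, of which 23.1% were called higher and 27.5% lower. MiR-29b-3p was 8.88-fold higher and miR-29c-3p 2.45-fold higher, while miR-29a-3p, at a ratio of 1.66, was not called. The granulocyte miRNA miR-223-3p had 29 counts in control and 50.5 with APAP, 4.87-fold higher after scaling. The other 4 members of the leukocyte list went from 414 to 111 counts, or from 0.839% to 0.564%. MiR-31-5p was lower in liver too (832 to 56 counts, 5.32-fold), as was miR-34a-5p (248 to 28 counts, 3.17-fold). With APAP plus G-CSF against control 4 of 18 were called higher and 0 lower (15.8% and 12.9% of all), namely miR-221-3p, miR-222-3p, miR-223-3p and miR-29b-3p. Between the treated livers 3 were called higher with G-CSF and 3 lower (17.3% and 13% of all). Of the list, miR-19b-3p alone was called lower with APAP in hepatocytes and higher in liver, the directions of miR-21a-5p.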

How the data were processed

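Small RNA libraries from 4 materials under 3 treatments had been made with a total RNA kit and the Ion Total RNA-Seq kit and sequenced on Ion Torrent PGM and Proton instruments, per the labels' protocols. Per the file headers, the authors deposited expected counts (estimated counts) for each mature miRNA and each hairpin, unscaled, in 12 columns that combine both instruments. No source used here names the aligner, the build or the rule for shared reads. Samples were grouped by their treatment characteristic.

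Counts were rounded for the fits. Ratios within a material used TMM factors (edgeR 4.0.16, R 4.3.3) after a filter of 10 counts in 1 of the 3 columns, or column totals for exosomes, with a floor of 3 counts for a 0. The 6-column fits took edgeR's quasi-likelihood F-test over miRNAs with at least 10 counts in 2 columns and Benjamini-Hochberg adjustment. Approximate standard errors are the log2 difference divided by the square root of F. DESeq2 1.42.0 and the other settings served as alternatives. Likeness used log2 CPM with a prior count of 2. MiRNAs outside the family were named if among the 5 most alike, among the 3 most abundant of a column, or on the injury list and called. Members, lists and tests were chosen with earlier results of these data known. Sequences and positions come from RefSeq and GENCODE annotation of GRCm38.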

Additional observations from a re-analysis of the deposited data

Results flagged for a closer look

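The fitted response to APAP differed between hepatocytes and liver for both mature miRNAs and all 3 hairpins. The difference itself was tested in the 6-column fits (edgeR's quasi-likelihood F-test with Benjamini-Hochberg adjustment). Each material had a single control column there, and the residual spread came only from the difference between APAP and APAP plus G-CSF columns. The adjusted p therefore do not rest on replicate mice or cultures. Hepatocytes and liver also received APAP in different ways and doses, so material and exposure cannot be told apart. The log2 differences, hepatocytes minus liver, were -5.78 for miR-21a-5p (adjusted p = 0.00311), -6.40 for miR-21b (adjusted p = 0.00178), -6.64 for mir-21a, -7.15 for mir-21b and -6.63 for mir-3965. Some counts were fractions, as with 0.5 each of miR-21a-5p and miR-21b in APAP hepatocyte exosomes. Reads that match several of these entries may thus have been divided among them, so the entries are not 5 separate results. MiR-155-5p, of the injury list, differed the other way by 7.49 (adjusted p = 0.00312 in the same edgeR fit), from 2, 46 and 26 counts in hepatocytes and 10, 0 and 10 in liver, in the order control, APAP and APAP plus G-CSF. It no longer passed with column totals (edgeR adjusted p = 0.0662), with the miR-21 entries left out of the scaling (0.0656), without APAP hepatocytes (0.0642) or, as mir-155, in the hairpin table (3.61, edgeR adjusted p = 0.0869), and its edgeR or DESeq2 adjusted p over the other 5 alternatives was 0.000747 to 0.00978.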

How the results depend on the processing

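The lower pair in APAP-treated hepatocytes and the higher pair in APAP-treated liver kept their direction and stayed past the 2-fold limit under every scaling tried: of 126 combinations of a member's comparison and an alternative, 0 changed side of the limit and 1 changed sign. Another scaling shifts all miRNAs of a comparison alike, by -0.57 to 0.53 (log2) in the mature table and by -0.63 to 0.39 in the hairpin table over the settings tried. Those shifts exceeded counting error for the following log2 folds. With DESeq2 size factors miR-21a-5p stood at -3.81 (APAP) and -3.14 (APAP plus G-CSF) against control in hepatocytes and at -0.71 for G-CSF added to APAP in liver. Without the low-count filter miR-21a-5p stood at -4.75 and -4.09 in hepatocytes, 1.99 with APAP in liver and -0.25 for G-CSF added in liver, and miR-21b at -5.14 with APAP in hepatocytes and -0.0082 for G-CSF added in liver. With column totals the G-CSF comparison in liver was -0.21 for miR-21a-5p and 0.025 for miR-21b.

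For hairpins in hepatocytes, in the order APAP and APAP plus G-CSF against control, column totals gave -4.39 and -4.28 for mir-21a, -4.71 and -5.02 for mir-21b and -4.36 and -4.28 for mir-3965. DESeq2 size factors gave -4.58 and -4.29, -4.91 and -5.04, and -4.56 and -4.29. Without the filter the values were -5.37 and -5.17, -5.70 and -5.91, and -5.35 and -5.17. Leaving the miR-21 entries out before scaling gave -4.68 and -4.43 for mir-21a and -4.66 and -4.43 for mir-3965. G-CSF added to APAP gave 0.11 and 0.084 for mir-21a and mir-3965 with column totals. In liver column totals gave 1.86 and 1.88 for mir-21a, 1.64 and 2.01 for mir-21b and 1.86 and 1.89 for mir-3965, with 0.026, 0.38 and 0.025 for G-CSF added to APAP. For APAP plus G-CSF against control in liver DESeq2 size factors gave 1.70, 1.82 and 1.70 and no filter 1.88, 2.01 and 1.88.

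For G-CSF added to APAP in hepatocytes, where the interval of miR-21a-5p had met 0, the log2 ratio was 0.66 (0.12 to 1.19) with DESeq2 size factors, 0.66 (0.11 to 1.18) without the filter and 0.82 (lower bound 0.27) with the miR-21 entries left out of the scaling.

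The difference of the APAP response between materials stayed past the threshold for miR-21a-5p (-5.61 to -6.48 with a treated column left out) and miR-21b (-6.40 to -7.02), with edgeR adjusted p of 0.000409 to 0.0172 and 3.93e-05 to 0.0110. Leaving the miR-21 entries out of the scaling gave adjusted p of 0.0370 and 0.0281. The number of miRNAs passing that test was 12, but 3 with column totals, 4 without the filter, 2 with the miR-21 entries left out of the scaling, and 7 to 23 with a column left out (7 without APAP hepatocytes, 23 without APAP liver). Hepatocytes against liver gave 14 calls, but 32 with DESeq2, 24 with column totals, 9 without the filter, 30 in the hairpin table, 7 with the miR-21 entries left out of the scaling, 24 without the treatment block and 0 to 35 with a column left out, with 0 without either treated liver column, 3 and 4 without a treated hepatocyte column, and 33 and 35 without the liver and hepatocyte controls. In that fit miR-21a-5p ran from -0.14 to 3.18 and miR-21b from -0.43 to 3.08, below 0 without control hepatocytes (-0.14 and -0.43) and, for miR-21b, without control liver (-0.23).

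With a minimum of 20 counts, the numbers of miRNAs called in serum exosomes fell from 19, 23 and 4 to 8, 15 and 1, and with a minimum of 5 hepatocyte exosomes had 1 call for APAP plus G-CSF against control in place of 0. No paired analysis was possible because each deposited column combines the libraries of a condition and carries no replicate number. Exchanging the treated serum columns gave no mature ratio of miR-21a-5p, since they held 0 and 0.5 counts. For changes of a count of calls the cause was not tested.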
